A study of Caenorhabditis elegans with 2 samples.

Results

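This account covers 8 protein-coding genes at the strongest binding sites of the tagged transcription factor COG-1 in Caenorhabditis elegans embryos that were not at ribosomal protein or histone genes. They are K12H4.5, ftt-2, tos-1, tasp-1, K01G5.10, cdc-48.1, H41C03.3 and W03C9.1, out of 19973 nuclear protein-coding genes in the annotation. They were chosen from the 20 peaks with the highest signal value in the authors' thresholded list of 1841 peaks, so their signal and rank are descriptions and no test was made of them. The 8 genes correspond to 8 summits in 7 regions, because ftt-2 has a pair of summits in its region and tasp-1 and K01G5.10 share a summit. Of the 20 strongest summits, 4 lay at ribosomal protein genes and 1 at histone genes. Among the other 15, 7 lay near an annotated gene start and 8 lay outside such windows. W03C9.1 stands for the strongest of those 8, and the other 7 were not included.

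The assay was chromatin immunoprecipitation followed by sequencing, which recovers DNA fragments held by a chosen protein. There was 1 group with 2 biological replicates, and both came from hermaphrodite mid-embryos of strain OP541, collected 3 hours after the culture was synchronized by bleaching eggs. The worms carried the mutation unc-119(tm4063) on chromosome III and the transgene wgIs541, which stably expresses COG-1 fused to GFP-FLAG at the C-terminal end, and the fragments were recovered with an antibody against GFP. The sources used here do not give the promoter or copy number of the transgene. The chromatin came from whole embryos rather than sorted cells, and no input or untagged library was analysed here.

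COG-1 is a homeodomain protein of the NK6 family, known for roles in taste neurons and in the vulva. Homeodomains bind short AT-rich sites, commonly with the core letters TAAT. A peak marks where fragments piled up, and it does not show that the nearest gene is regulated. The gene ftt-2 encodes a 14-3-3 protein, an adaptor that binds phosphorylated partners. The gene cdc-48.1 encodes an AAA ATPase that pulls ubiquitylated proteins out of complexes, tasp-1 encodes a homologue of the protease taspase-1, and tos-1 is known for its alternatively spliced transcripts.

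The 101 bases centred on each summit are shown because they are the sequence at which the signal was highest. They are from the RefSeq genome of WBcel235, which has the same sequence as ce11, and each is written 5′ to 3′ on the strand of its gene (of tasp-1 for the shared summit). Capitals mark 3 things: in ftt-2 and tos-1, runs of at least 10 bases that another of the 8 windows also holds, in cdc-48.1 the core ATTA, which is TAAT on the other strand, and in tasp-1/K01G5.10 a run of 9 bases that recurs on the opposite strand.
K12H4.5, chrIII:8043908-8044008, plus strand: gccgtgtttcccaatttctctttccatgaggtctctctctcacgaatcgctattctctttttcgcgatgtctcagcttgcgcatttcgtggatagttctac
ftt-2 summit 1, chrX:11605891-11605991, minus strand: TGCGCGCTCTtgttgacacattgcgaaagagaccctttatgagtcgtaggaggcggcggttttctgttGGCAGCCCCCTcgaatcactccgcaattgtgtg
tos-1, chrV:9344250-9344350, minus strand: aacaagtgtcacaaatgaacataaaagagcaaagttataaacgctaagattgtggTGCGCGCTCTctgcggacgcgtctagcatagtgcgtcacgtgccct
W03C9.1, chrII:11960747-11960847, minus strand: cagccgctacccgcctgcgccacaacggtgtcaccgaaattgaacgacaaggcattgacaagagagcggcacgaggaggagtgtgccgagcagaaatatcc
tasp-1/K01G5.10, chrIII:10759183-10759283, plus strand: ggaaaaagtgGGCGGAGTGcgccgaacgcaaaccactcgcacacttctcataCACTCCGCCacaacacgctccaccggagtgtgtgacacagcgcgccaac
cdc-48.1, chrII:10563530-10563630, minus strand: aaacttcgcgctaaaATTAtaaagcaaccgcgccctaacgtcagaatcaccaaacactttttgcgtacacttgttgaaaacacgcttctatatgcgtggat
ftt-2 summit 2, chrX:11606101-11606201, minus strand: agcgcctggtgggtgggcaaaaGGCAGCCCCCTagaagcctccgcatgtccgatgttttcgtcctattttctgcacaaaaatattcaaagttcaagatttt
H41C03.3, chrII:5844792-5844892, plus strand: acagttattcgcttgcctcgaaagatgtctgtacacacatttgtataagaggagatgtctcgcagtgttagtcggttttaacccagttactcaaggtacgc

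Only 1 of the 8 windows, that of cdc-48.1, held the homeodomain core TAAT on either strand, and it began 35 bases before the summit. Over all 1841 peaks, 38.8% of windows of the same length held it, as did 32 of the 100 strongest. The longer homeodomain site TAATTA was in none of the 8 windows, against 2.66% of all peaks. Neither was the related site TAATTG, which 4.13% of all peaks held. Whether these letters being missing from a window bears on COG-1 being there was not tested. With 100 bases to either side of the summit, 5 of the 8 windows held TAAT, against 67.8% of all peaks, and with 25 bases 0 of 8 did, against 19.8%.

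Other short sequences were each present at few of the 8 summits. The letters AAGTG, a core bound by NK2-type homeodomains, were at 3 of 8 summits (tos-1, tasp-1/K01G5.10 and cdc-48.1), against 23.8% of all peaks. TATAAA was at 2 (tos-1 and cdc-48.1), against 5.49%. CACGTG was at tos-1, against 2.72%, and GAGAGA at K12H4.5, against 28.9%. CTGCGTC was at none of the 8 summits, against 13.3% of all peaks. AGATAAG was at none of them, against 0.543%, and the same held for GGTTCGA, against 4.07%. All were sought on both strands. TATAAA and the core ATTA overlap in the cdc-48.1 window.

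The windows had little sequence in common beyond the ftt-2 locus. The run GGCAGCCCCCT stood in both ftt-2 windows, on the same strand, and in 2 of the 1841 peak windows in all, which are these same windows. It began 18 bases past the first ftt-2 summit and 28 bases before the second. The run TGCGCGCTCT was shared by the first ftt-2 window and tos-1, and was in 4 of the 1841 windows. These were 2 of the 28 pairs of windows with a shared run of 10 bases or more, against 5.03% of all pairs of peak windows. Within the tasp-1/K01G5.10 window the run GGCGGAGTG recurred on the opposite strand, and 13.4% of all peak windows held a recurring run at least as long. The share of G and C was 41.6% at cdc-48.1 and 60.4% at tasp-1/K01G5.10, the lowest and highest of the 8. Its median was 47.5% over the 8, 47.5% over all peaks and 51.5% over the 100 strongest.

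The signal value of the pooled list behaved as a sum of the replicates. The authors' peak caller gave each region this value; how it was scaled for depth is not stated. Over the 1833 peaks that lay in a region of both replicates' own lists, the pooled value divided by the sum of the replicate values had a median of 1.00, with 5th and 95th percentiles of 0.936 and 1.09. At the 8 summits the quotient was 0.989 to 1.01. The replicates' own values are given next.

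K12H4.5 stood above all other peaks in both replicates. Its peak (chromosome III, 8043777 to 8044161 in ce11) had a signal of 339.1 in replicate 1 and 432 in replicate 2, and 769 in the pooled list. It was rank 1 in each of these lists. Its value was 1.37 times that of the rank 2 peak in the pooled list, 1.48 times in replicate 1 and 1.30 times in replicate 2.

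The other summits followed with a smaller range among themselves. At the first ftt-2 summit (X, region 11605656 to 11606428) the signal was 212 in replicate 1 and 323 in replicate 2, and 529 pooled. It ranked 4 and 3 in the replicates. At tos-1 (V, 9344098 to 9344471) it was 205 and 296 in replicates 1 and 2, and 504 pooled. That summit ranked 5 and 4.

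W03C9.1 (II, 11960661 to 11961003) had 212 in replicate 1 and 272 in replicate 2, and 489 pooled, and it ranked 3 and 6. The shared peak of tasp-1 and K01G5.10 (III, 10759079 to 10759386) had 198 and 286, and 484 pooled, and ranked 6 and 5. These peaks, with ftt-2 and tos-1, held ranks 3 to 6 of both replicates, all 4 of them in both. At cdc-48.1 (II, 10563432 to 10563715) the signal was 182 in replicate 1 and 216 in replicate 2, and 397 pooled. It ranked 9 in replicate 1 and 16 in replicate 2.

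The weakest of the 8 were the second ftt-2 summit and H41C03.3. The second ftt-2 summit had 172 in replicate 1 and 196 in replicate 2, and 372 pooled. It was rank 12 in replicate 1 and rank 28 in replicate 2, and so was the only one of the 8 outside the top 20 of a replicate. H41C03.3 (II, 5844608 to 5844947) had 158 and 211, and 372 pooled, at ranks 20 and 18. All 8 summits were in the top 20 of replicate 1 and 7 of 8 in that of replicate 2.

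**Figure D1:**
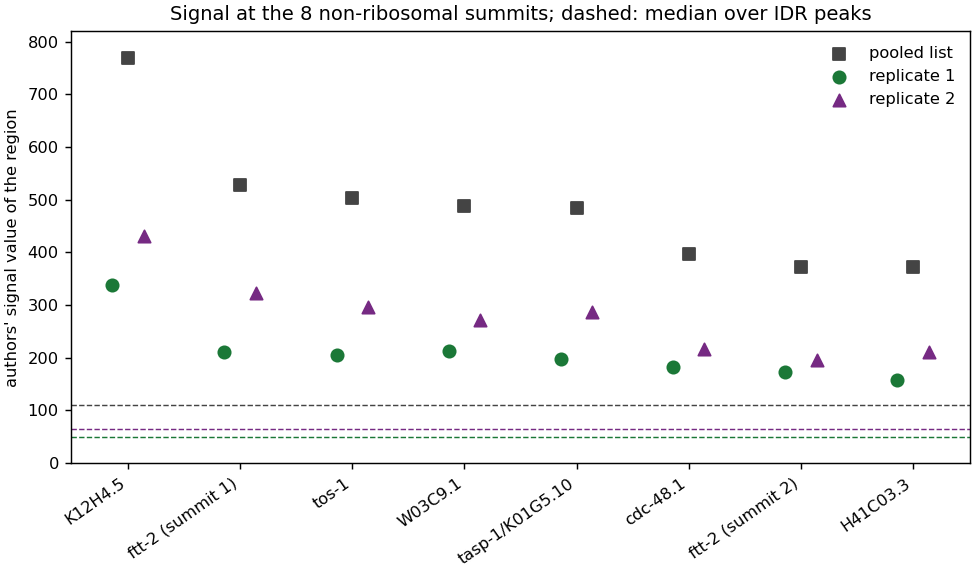
Authors' signal value (vertical axis, no unit given) at the 8 summits in replicate 1, replicate 2 and the pooled list; dashed lines are medians, over the 1841 IDR peaks for the pooled list and over the 1833 with a region in both replicates for each replicate. Replicate 2 lies above replicate 1 at every summit, and K12H4.5 lies highest in each list.

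Replicate 2 had the higher value at all 8 summits, by 1.14 times at the second ftt-2 summit to 1.53 times at the first. That is the usual relation of the replicates in these lists: over the 1833 peaks the median quotient was 1.31, with quartiles at 1.06 and 1.66, and all 8 summits were between the quartiles.

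To set the summits side by side over replicates, each value was divided by the replicate's median over these peaks, 48.98 in replicate 1 and 64.5 in replicate 2. On this scale K12H4.5 was at 6.81 ± 0.16 (mean ± SD, n = 2) and the first ftt-2 summit at 4.67 ± 0.49. The order follows from the signal that chose the summits, so the gaps between neighbours are given as a description and were not tested. Next came tos-1 at 4.39 ± 0.29, W03C9.1 at 4.27 ± 0.089 and tasp-1/K01G5.10 at 4.24 ± 0.28. Each of these 3 lay closer to the summit before it than the sum of both SDs.

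Below them were cdc-48.1 at 3.53 ± 0.26, the second ftt-2 summit at 3.27 ± 0.34 and H41C03.3 at 3.25 ± 0.023, and these neighbours also lay within the sum of their SDs. The order of tos-1 against W03C9.1, of W03C9.1 against tasp-1/K01G5.10 and of the second ftt-2 summit against H41C03.3 was opposite in the replicates. With 2 replicates these SDs are themselves imprecise.

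**Figure D2:**
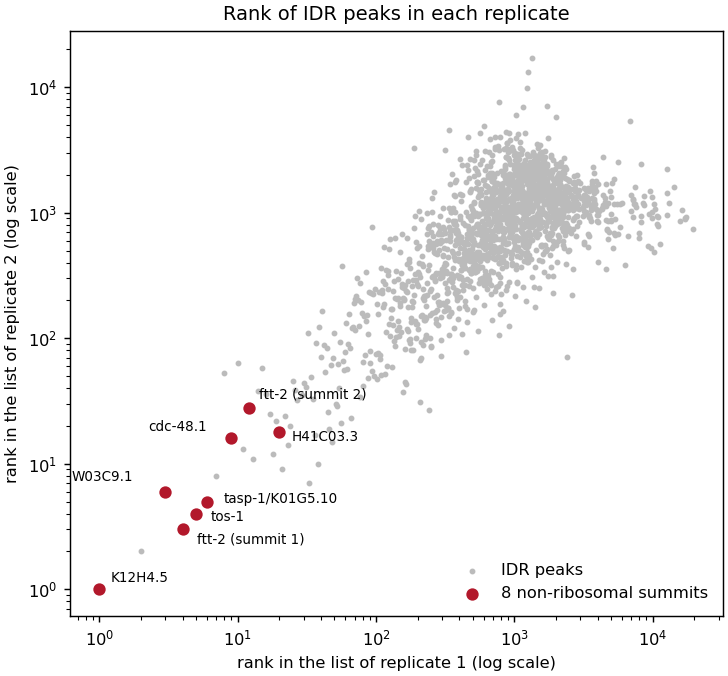
Rank of each IDR peak in the list of replicate 1 (horizontal, log scale) against its rank in the list of replicate 2 (vertical, log scale), with the 8 summits in red. K12H4.5 is at rank 1 in both, and the second ftt-2 summit, at ranks 12 and 28, is the farthest down in replicate 2.

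The limit of 20 falls on a smooth part of the signal curve. H41C03.3, at rank 17 with 372, is the last of the 8. The peaks just inside the limit were those nearest to the starts of hrg-5 (363), F20B6.9 (361) and cest-16 (359.9), all outside gene-start windows. Just outside were nspc-17 (rank 21, 358), sup-26 (rank 22, 356), T02E1.2 (rank 23, 354), ets-5 (rank 24, 354) and F53A3.1 (rank 25, 352). Of these 5, nspc-17 and T02E1.2 had the summit in their start window, 742 and 484 bp upstream. T02E1.2 ranked 8 in replicate 1 and 53 in replicate 2.

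**Figure D3:**
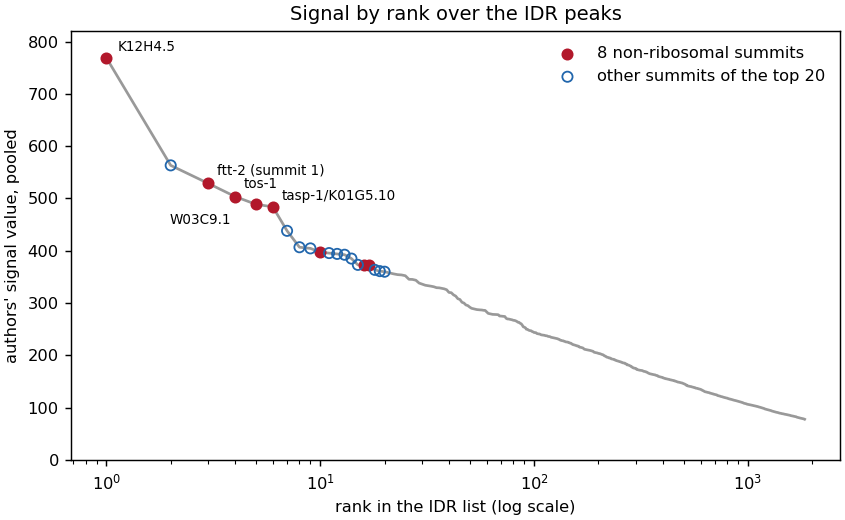
Pooled signal value (vertical) by rank in the IDR list (horizontal, log scale), with the 8 summits filled and the other 12 summits of the top 20 open. The value is 769 at rank 1, 372 at ranks 16 and 17 and 359.9 at rank 20, and the curve goes on without a gap.

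Summits lay upstream of 7 of the 8 genes and at no common distance. A gene was counted as holding a summit where the summit fell no more than 1000 bp before or 500 bp after the gene's annotated start, which 7 of the 8 genes did, and so did 6.82% of all protein-coding genes. The list was chosen on this measure, so neither the count nor the distances are a result. The summit was 74 bp upstream of tasp-1, 97 bp upstream of tos-1 and 173 bp upstream of cdc-48.1. It was 529 bp upstream of K12H4.5, 711 bp upstream of K01G5.10 and 935 bp upstream of H41C03.3. The ftt-2 summits lay 522 and 732 bp upstream. The median over the 9 gene and summit combinations, W03C9.1 included, was 529 bp. Over all peaks the median distance from the summit to the nearest start was 592 bp. The listed gene was not always the nearest, so the measures differ.

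In many worm genes the annotated start is the site where a spliced leader is joined, not where transcription begins. With RefSeq starts in place of those of Ensembl, only tasp-1 moved, to 152 bp. None of the 8 summits lay inside a protein-coding gene, where 28.0% of all peaks and 27 of the 100 strongest lay. Most of the listed genes were chosen for a summit near their start, so this count is not a result either.

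The peaks of K12H4.5, tasp-1 with K01G5.10, and ftt-2 lay between gene starts that point away from each other. The K12H4.5 summit was in a gap of 1611 bp, with K12H4.6 starting 1083 bp to the other side. The gene after K12H4.5 is spcs-3, which encodes a signal peptidase subunit and starts 1059 bp from the summit. The gap between K01G5.10 and tasp-1 was 784 bp, with the summit close to the tasp-1 side. At ftt-2 the gap was 12050 bp and the next gene on the far side, F52D10.4, started 11529 bp from the first summit. Such divergent gaps held 38.0% of all peaks.

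At tos-1 and cdc-48.1 the gene on the other side read in the same direction. It was K07B1.7, 722 bp from the tos-1 summit, and C06A1.6, 532 bp from the cdc-48.1 summit. Gaps between genes in tandem held 31.4% of all peaks.

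The peaks assigned to W03C9.1 and H41C03.3 lay between the 3′ ends of converging genes. The W03C9.1 summit was 193 bp past the 3′ end of that gene, and 54 bp past the 3′ end of W03C9.6, in a gap of 246 bp. The summit assigned to H41C03.3 was 222 bp past the end of nep-25 and 412 bp past the end of ZK1248.17. The start of ZK1248.17, at 699 bp, was nearer than that of H41C03.3, but the summit was downstream of it, beyond the window. So H41C03.3 is not the neighbouring gene of its peak on either side.

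Convergent gaps were the rarest of the 4 classes of position among peaks. They held 48 of 1841 peaks (2.61%), 13 of the 100 strongest and 4 of the 20 strongest, of which W03C9.1 and H41C03.3 are 2. Among the 48, 36 (75%) had an annotated non-coding RNA gene within 500 bp of the summit. These shares were not tested against the other classes, in which they were 29.9% for divergent gaps, 28.9% for tandem gaps and 41.7% inside genes. Depth and mappability at these gaps were not examined.

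**Figure D4:**
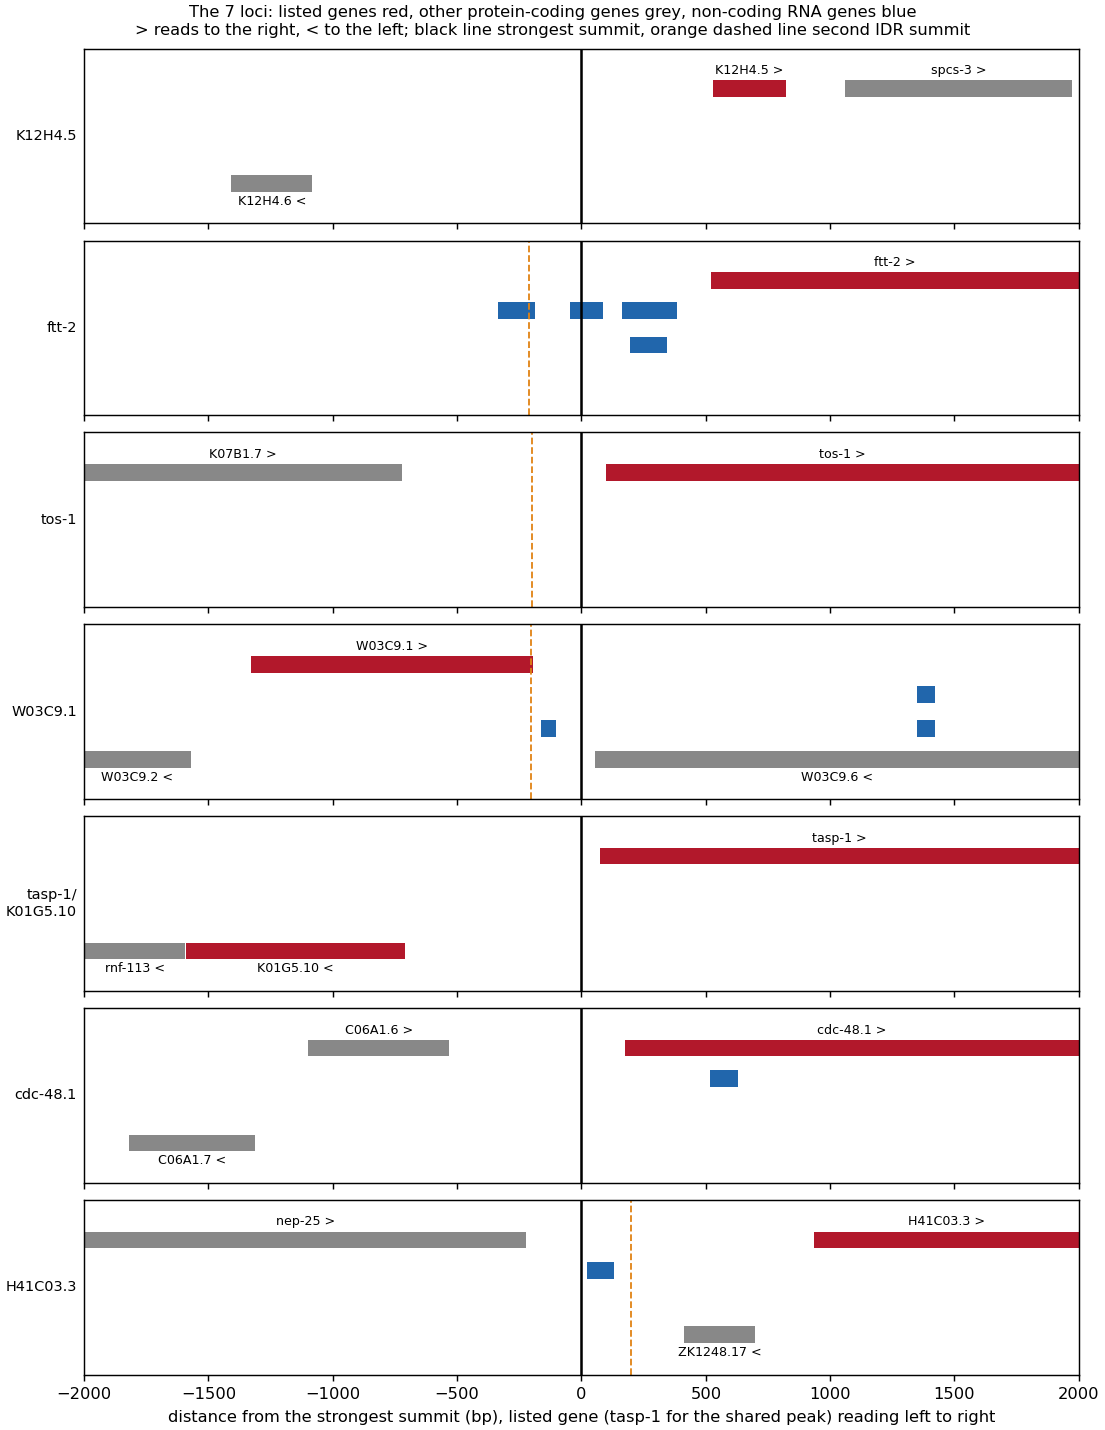
The 7 loci to scale in bp from the strongest summit (black line), with the listed genes in red, other protein-coding genes in grey and non-coding RNA genes in blue (pseudogenes and piRNA genes not drawn). The summits of W03C9.1 and H41C03.3 lie between converging genes beside a small RNA gene, and those of ftt-2 lie in RNA genes upstream of it.

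Non-coding RNA genes flanked 3 of the 7 regions, those of ftt-2, W03C9.1 and H41C03.3. Counted by summit it was 4 of 8 with such a gene within 500 bp, against 34.1% of all peaks. At W03C9.1 it was the snoRNA gene W03C9.9, of a class of RNAs that guide chemical changes of other RNAs. Its 62 bp lie at 11960898 to 11960959 on the plus strand, and the summit was 101 bp upstream of its start. At H41C03.3 it was sls-2.1, a gene of the SL2 spliced leader RNA, which is joined to transcripts of downstream genes in operons. The summit was 23 bp upstream of its start (5844865 to 5844974, plus strand), so it lay much closer to sls-2.1 than to H41C03.3.

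At ftt-2 there were 4 non-coding RNA genes of no named class. The first summit was inside F52D10.7, 48 bp from its start, and the second inside F52D10.9, 126 bp from its start, and both RNA genes read in the direction of ftt-2. F52D10.12 and F52D10.11 lay 162 and 197 bp from the first summit, between it and ftt-2. No such gene was within 500 bp of the summits at K12H4.5, tos-1, tasp-1/K01G5.10 or cdc-48.1.

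Second summits stood beside 4 of the 7 regions, at nearly the same spacing. The pair at ftt-2 was 210 bp apart, with the second at 70.4% of the signal of the first. At H41C03.3 a second IDR summit (5845043, rank 218, signal 197) lay 201 bp away, on the far side of sls-2.1, with 52.9% of the signal. The one at tos-1 (9344501, rank 241, signal 190) was also 201 bp away, at 37.8%, and 298 bp upstream of the gene. At W03C9.1 (11961000, rank 436, signal 153) it was 203 bp away, at 31.3%, and inside that gene (11960990 to 11962128).

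All 4 second summits had a region in both replicates. The tos-1 one ranked 386 in replicate 1 and 214 in replicate 2, that of H41C03.3 128 and 170, and that of W03C9.1 804 and 423. In each of the deposited ce11 lists the smallest distance between neighbouring summits was 199 bp, and in the IDR list 66 distances were 210 bp or less. The spacing of the second summits is therefore at the lower limit that the lists contain. Overlapping regions were found for 150 of the 1841 peaks (8.15%). In the IDR list second summits lay inside the first region's own bounds at 2 loci, ftt-2 and, close to the edge, W03C9.1. The share of all peaks with a second summit inside their bounds is not given here. The 8.15% counts any overlap of regions, so it cannot be set beside these 2 loci. In replicate 1 this was so at ftt-2 and H41C03.3, and in replicate 2 at ftt-2 alone of the 7 regions.

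The regions were mostly narrower than the usual width of 450 bp. All but that of ftt-2 were 284 to 385 bp wide. In the IDR list 1682 regions had a width of 450 bp and 149 (8.09%) were narrower, and the 100 strongest had a median width of 264 bp. The ftt-2 region was 773 bp wide, the widest of the list, and was 526 bp wide in replicate 1 and 757 bp in replicate 2 at the first summit.

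Summit positions in the replicates were close. They were 2 bp apart at W03C9.1, 5 bp at tos-1, 12 bp at K12H4.5, 15 bp at cdc-48.1 and at H41C03.3, 23 bp at tasp-1/K01G5.10 and 33 bp at each ftt-2 summit. The median was 28 bp over all peaks and 19 bp over the 100 strongest.

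K12H4.5 stood alone in its neighbourhood. Within 10 kb of its summit there was no other region, even in the relaxed pooled list of 22583, which by its label also holds background. That was so for 19 of the 1841 peaks (1.03%) and 2 of the 100 strongest. The tasp-1/K01G5.10 and cdc-48.1 summits had no other IDR peak within 10 kb, which was the case for 56.3% of peaks, but 2 and 9 relaxed regions. Beyond the first pair, the ftt-2 gap held 1 further IDR peak, 2083 bp upstream of the gene (rank 1691, signal 81.7), and 4 more relaxed regions. Within 10 kb of W03C9.1 there were 3 IDR peaks besides its own summit, the strongest 192 bp upstream of W03C9.5 (rank 134, signal 229).

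The paralogs of ftt-2 and cdc-48.1 each held an IDR peak, on either side of the median signal of the list (110.7). The listed genes were chosen for high signal, so the size of the gap to their paralogs is not a result. The other 14-3-3 gene, par-5, which acts in the polarity of the early embryo, had an IDR peak 125 bp upstream (rank 806, signal 117). The other p97 gene, cdc-48.2, had one 881 bp upstream (rank 1265, signal 94.6). In replicates 1 and 2, par-5 had 43.0 and 68.3 and cdc-48.2 had 42.1 and 57.9.

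A list of 12 paralogs and partners held par-5 for ftt-2, and the paralog and partners of cdc-48.1. It was chosen with earlier results of these data known, and no test was made of it. Of the 12 genes, 5 held an IDR peak, against 6.82% of all protein-coding genes. Besides the paralogs these were ufd-3 (rank 657, signal 129, 128 bp upstream), ubxn-3 (rank 1463, signal 87.9, 683 bp upstream) and ufd-2, a ubiquitin chain elongation factor (rank 1571, signal 85.2, 345 bp upstream). No IDR peak lay in the windows of ufd-1, npl-4.1 and npl-4.2, which encode the core cofactors of CDC-48 in protein extraction, or of ubxn-1, ubxn-2, ubxn-4 and ubxn-6. In the relaxed pooled list, which also holds background, ubxn-1 had a region at rank 2661, ubxn-2 at 4345, ubxn-4 at 11779 and ufd-1 at 12969. There was none for npl-4.1, npl-4.2 or ubxn-6. With that list limited to regions with q under 0.05, 6 of the 12 genes held one. The shares of all genes on these measures are not given here. The ranks of the 5 peaks lay between 657 and 1571 of 1841.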

How the data were processed

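The authors deposited lists of regions in narrowPeak layout for ce11 and ce10. Relaxed lists, holding peaks and background, were made from the alignments of each replicate and of both pooled, with a control alignment, per the deposited file listing, and the thresholded list was derived from these by the irreproducible discovery rate (IDR). The sources used here do not name the aligner, the peak caller or the IDR threshold. The deposited values are a signal per region, a q-value as −log10 (capped, at 3.45 in the pooled ce11 list, and not used to rank) and a summit offset. The lists give no read depth, so precision rests on 2 replicates.

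Regions were ranked by signal within each ce11 list. A replicate's region was matched where it held the pooled summit (with several, the one whose summit was nearest). Gene starts are from Ensembl release 115 on WBcel235, which is ce11, and coordinates count from 1. Mitochondrial genes were left out. Non-coding RNA genes are all annotated genes other than protein-coding genes and pseudogenes. Motifs were sought in 101 bp windows. Python 3.11.15, numpy 2.4.6 and pandas 2.3.3 were used, and the steps were tested on simulated data. The genes, lists and motifs were chosen with earlier results of these data known. No statistical test was run. The named genes are the 8 listed, the nearest protein-coding genes, RNA genes within 500 bp, peaks at ranks 18 to 25, the listed paralogs and partners, and, chosen after their values were seen, genes at other IDR peaks within 10 kb. Shared and recurring runs, gap orientation and neighbourhood counts were added after the data were seen.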

Additional observations from a re-analysis of the deposited data

How the results depend on the processing

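Of 32 alternatives to the 8 main values, 23 stayed within 1.5 times a count, or within the spread of a value, and 9 did not. The 8 summits numbered 7 to 8 in the top 20 of a single replicate, and their highest signal in the ce10 list was 769 as well. With a window of 500 bp upstream to 250 bp downstream, 3 listed genes held a summit rather than 7, and 3 paralogs and partners rather than 5. The share of all protein-coding genes at that window is not given here, so these drops cannot be set against it. The median distance to the start was 623 bp from the region's midpoint and 522 to 555 bp from single replicates' summits, against 529 bp. Regions with more than 1 summit inside their bounds numbered 1 to 2 in single replicates, against 2. The locus in every list was ftt-2, with W03C9.1 in the IDR and pooled lists and H41C03.3 in replicate 1. The share of all peaks on this measure is not given here. Among the IDR peaks above the median rank 2 paralogs and partners had a peak, again without the share of all genes to set beside it. TAAT was at 5 summits within 100 bp, at 0 within 25 bp and at 1 to 2 with single replicates' summits, against 1. The use of RefSeq starts was chosen after seeing the data and left the median at 529 bp. The cause of these shifts was not tested beyond the width of each window. Differences between neighbouring ranks were not tested, since the summits were chosen and ordered by the same signal.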
